A study of Mus musculus with 6 samples.

Results

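In the E14.5 mouse fetal liver section, 5273 of 117329 segmented cells held at least 5 raw counts of Colec11, Lhx2, Wnt2, Pdgfrb and Lum together, and these cells are called the selected cells here. They made up 4.49% of the section (exact 95% binomial interval 4.38% to 4.61%, which covers counting error only), out of 521938 cells in the 6 sections of the series. The rule used measured values, so the levels of these 5 genes are a description of how the cells were chosen. The 5 genes were taken as a working label for stellate-like stroma, and the label was checked against genes that the rule did not use.

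The section came from wild-type C57BL/6 fetal liver at embryonic day 14.5. It was cut at 5 µm from formalin-fixed, paraffin-embedded liver and imaged in situ (Xenium) with probes for 477 genes, with a median of 167 transcripts per cell. The series compared blood-forming organs of mice, with 1 section each of E13.5 and E14.5 fetal liver, P8 and 89-week bone marrow, untreated adult spleen, and spleen after repeated injections of phenylhydrazine (PHZ) at 40 mg/kg, a drug that destroys red cells. All of these mice were wild type. Cells were outlined by expanding nuclei, so transcripts of a thin or branched cell may be counted in the cell beside it. With 1 section per condition there are no replicates, and no test was made. Every difference below is given with counting error or with its range over 5 separate pieces of tissue in the same section. The pieces are numbered from the largest, and the labels do not say which lobe or embryo each came from.

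Hepatic stellate cells are the pericytes of the liver. They sit between the sinusoidal endothelium and the hepatocytes, store vitamin A, and make matrix when activated. In the fetal liver, mesenchymal cells of this lineage lie among blood-forming cells and beneath the mesothelium that covers the organ. Lhx2 is a transcription factor of the stellate lineage, Colec11 is a secreted collectin, Pdgfrb is the PDGF receptor of mural cells, Lum is the collagen-binding proteoglycan lumican, and Wnt2 is a secreted ligand that sinusoidal endothelial cells also make.

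Lum was the largest single source of the selecting counts. It gave 22774 of the 47407 selecting counts in the selected cells (48.0%), against 10164 for Pdgfrb, 7605 for Lhx2, 5790 for Colec11 and 1074 for Wnt2. Lum was the single highest of the 5 genes in 2910 selected cells (55.2%), Pdgfrb in 648, Lhx2 in 504, Colec11 in 260 and Wnt2 in 8, and 943 cells had a tie. Counts of only 1 of the 5 genes were found in 297 selected cells (5.63%), 281 of them with Lum alone. Counts of 3 of the 5 were found in 1984 and of 4 in 1549. Many cells still passed only with Lum: without Lum in the sum, 1.97% of the section passed instead of 4.49%. A Lum count was present in 94.8% of selected cells, a Pdgfrb count in 77.1%, a Lhx2 count in 61.1%, a Colec11 count in 57.8% and a Wnt2 count in 16.5%.

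The same genes were also found at a low level in cells that should lack them. Among 9057 cells that took at least 50% of their counts from erythroid genes and lay over 40 µm from any selected cell, 6.27% had a Lum count, 3.31% a Colec11 count, 3.21% a Lhx2 count, 1.83% a Pdgfrb count and 1.02% a Wnt2 count. These cells had a median of 159 transcripts, against 193 in the selected cells and 166 in all other cells of the section. The threshold cut through a continuous range: 2722 cells had 3 selecting counts, 1680 had 4, 1213 had 5 and 801 had 6. The 4402 cells with 3 or 4 counts had 23206 CPM (each count scaled to a total of 1e6 gene counts) of the stellate and pericyte list, the 2014 cells with 5 or 6 had 37732 CPM, and the 87475 cells with none had 2904 CPM.

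The selected cells did not lie in 1 kind of place. A dense patch of 360.2 by 556.4 µm at the edge of the second-largest piece held 982 of them, which was 18.6% of the selected cells among 1.17% of the cells of the section. The rim, meaning the 40 µm next to the outer edge of a piece outside the patch, held 1213. The interior held the other 3078, spread among blood-forming cells. On the rim 19.2% (18.2% to 20.2%) of cells were selected and in the interior 2.81% (2.71% to 2.91%). In the patch 71.4% were, but the patch was drawn by its share of selected cells. Its high share therefore follows from how it was drawn. Outside the patch, the 5 pieces held 3.17%, 3.10%, 3.91%, 5.64% and 7.71% selected cells.

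**Figure D1:**
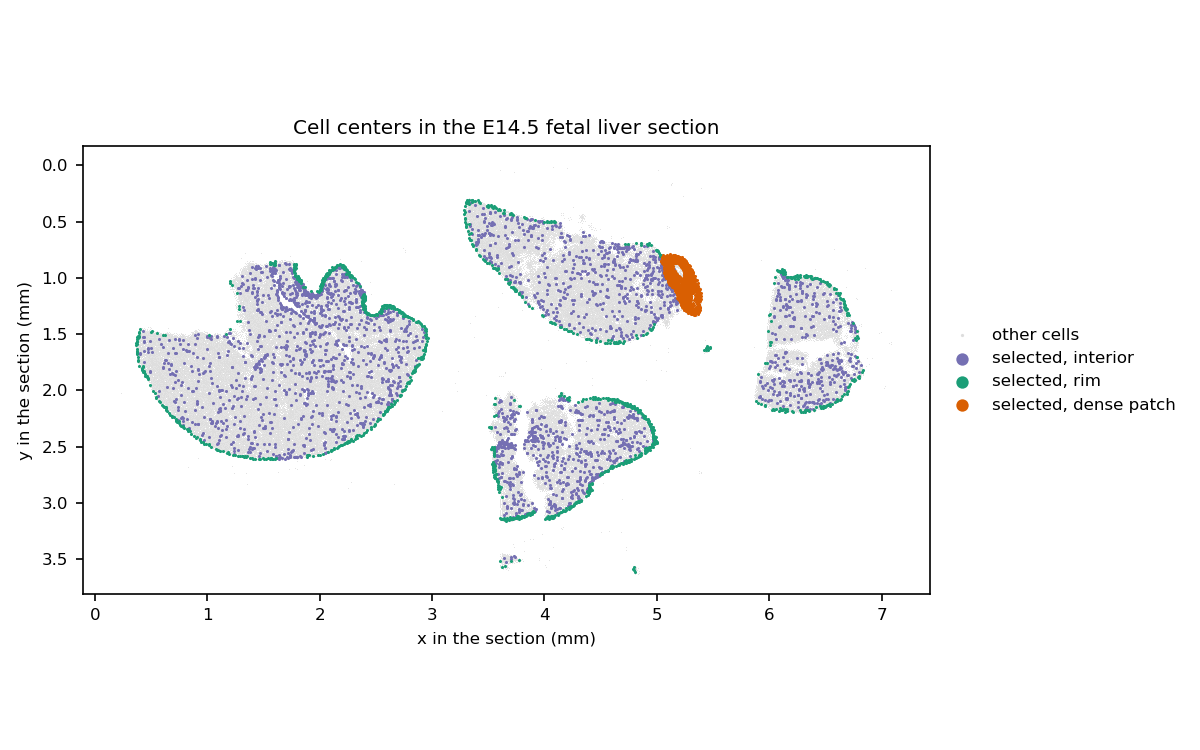
Centers of all cells in the section, x and y in mm, with other cells in gray and selected cells colored by place. The 982 orange cells of the dense patch form 1 body at the end of a piece, the 1213 green cells trace the outer edges, and the 3078 purple cells are scattered through the interior.

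The mix of selecting genes changed with place. Lhx2 had a mean of 2.34 counts per selected cell on the rim and 1.55 in the interior but 0.0102 in the patch, where it amounted to 0.101% of the selecting counts. Lum had a mean of 8.15 counts per selected cell in the patch, 4.01 on the rim and 3.22 in the interior. Colec11 ran the other way, with 0.277 in the patch, 0.757 on the rim and 1.49 in the interior, and Wnt2 was highest in the interior at 0.305 against 0.0561 on the rim. Pdgfrb differed least among the 3 places, with 1.59, 2.36 and 1.86. Cells were chosen on the sum of these genes, so a cell with less of 1 needed more of the others. The means are therefore not independent of each other. A count of Colec11 or Lhx2 was present in 92.8% of the selected interior cells and 92.2% of those on the rim, but in 21.2% of those in the patch.

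In the patch, where Lhx2 was nearly missing and Colec11 low, hepatocyte and erythroid genes were low as well. Selected cells of the patch had 2291 CPM of the hepatocyte list and 27515 CPM of the erythroid list, against 33454 and 271625 CPM in selected interior cells. They were rich in Aspn, a matrix proteoglycan, with 6716 CPM against 123 CPM in the interior, in Mfap4, a microfibril protein, with 20694 against 1965 CPM, and in Myh11, smooth muscle myosin, with 9096 against 2150.5 CPM. The 393 other cells of the patch carried the epithelial genes Epcam at 7130 CPM and Krt19 at 8442 CPM, where other interior cells had 85.4 and 94.7 CPM. The labels do not say what this tissue is. Some values below are therefore also given without the patch, and section values that do not say so include it. Ratios of selected over other cells within single pieces always leave the patch out.

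Across the panel, the selected cells were set against all 112056 other cells by the ratio of summed CPM. Of 359 genes with at least 500 counts in the section, leaving out the 5 selecting genes, 115 were at least 2-fold higher in the selected cells (32% of the genes compared) and 49 were at least 2-fold lower (13.6%). The median ratio over the 359 genes was 1.28. Without the patch, 107 of 351 genes were at least 2-fold higher (30.5%) and 30 at least 2-fold lower (8.55%). In all 5 pieces without the patch, 71 genes were at least 2-fold higher, while only Kng2, a kininogen gene, and Slc14a1, a urea transporter of red cells, were at least 2-fold lower.

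The 15 highest genes had ratios of 19.1 to 39.9. Mfap4 stood at 6197 CPM in selected cells and 155 CPM in other cells, a ratio of 39.9 (95% interval 38.2 to 41.7). Without the patch its ratio was 25.2, and over the 5 pieces, also without the patch, it ran from 10.4 to 34.6. Pdgfra, the PDGF receptor of fibroblasts, had 13049 and 443 CPM, a ratio of 29.4 in the section and 23.5 without the patch. Col1a1, the main chain of fibrillar collagen, was the most abundant of the leading genes, with a mean of 9.16 counts per selected cell and 0.386 per other cell, and its ratio was 20.2. Itga8, an integrin of mesenchymal cells, had a ratio of 19.4, and Upk3b, a uroplakin of mesothelium, one of 19.1.

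Among the other leading genes, Ptn, the growth factor pleiotrophin, had a mean of 4.01 counts per selected cell and 0.116 per other cell, a ratio of 29.5. Fzd2, a Wnt receptor, had a ratio of 24.1, and Ackr3, a scavenging receptor for the chemokine CXCL12, one of 22.5. Hsd11b2, which inactivates glucocorticoids, stood at 23.2, Nnat at 26.7, Pmp22 at 19.3 and Fxyd6 at 20.9. The 2 genes known only by clone names, 6330403K07Rik and A330076H08Rik, had ratios of 23.5 and 21.3. Aspn stood high with the patch only: its ratio was 21.8 in the section and 3.43 without the patch, with 1.43 to 5.75 over the pieces. The other 14 of the 15 highest genes kept a ratio of at least 7.87 in every piece.

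The lowest genes included genes of red cells, hepatocytes, macrophages and granulocytes. Slc14a1 had a mean of 0.349 counts per selected cell and 0.920 per other cell, a ratio of 0.323 (0.308 to 0.338). Epor, the erythropoietin receptor, stood at 5724 CPM against 15304 CPM, a ratio of 0.374. Kng2 had 0.374, Cd5l, a macrophage secreted protein, 0.345, and Ctsg, a granule protease, 0.333, though Ctsg ran from 0 to 1.17 over the pieces. Prx, Car3, Tspan8, Ctse and 0610005C13Rik had ratios between 0.337 and 0.376. None of these genes was absent from the selected cells, which held a median of 29 erythroid counts against 69 in other cells.

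**Figure D2:**
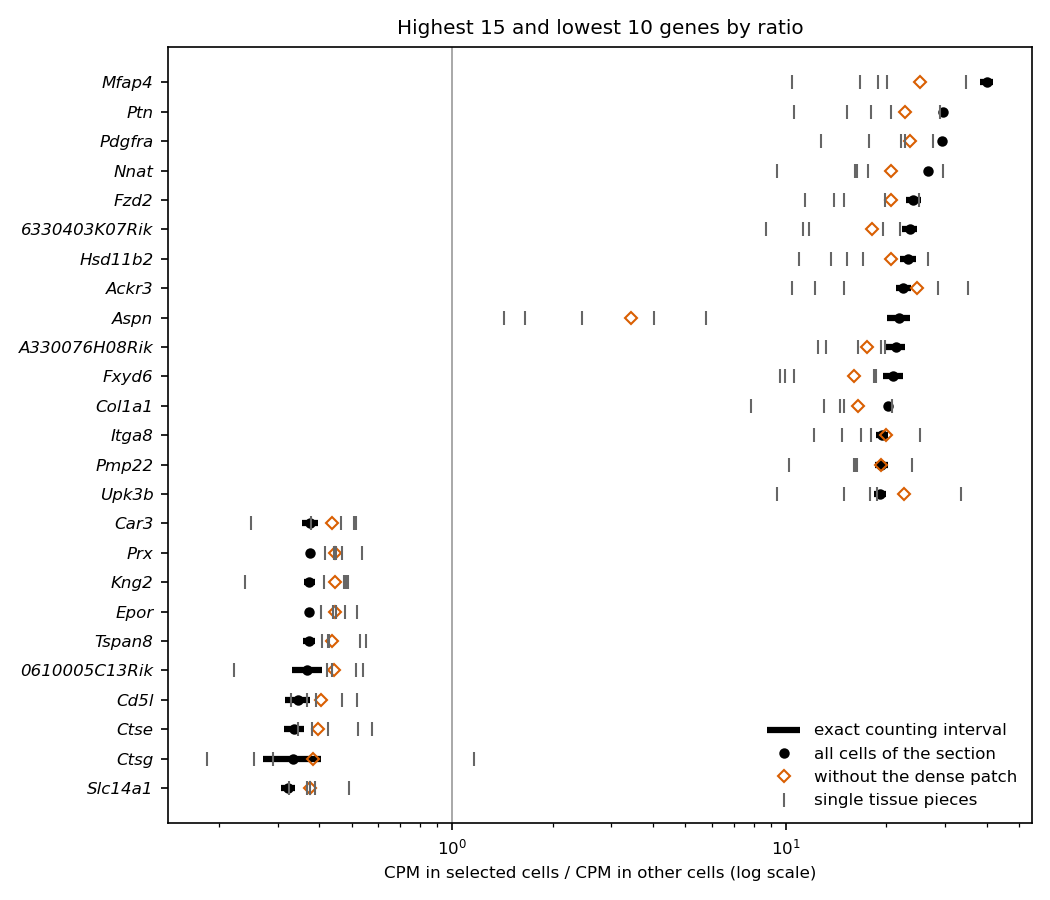
CPM in selected cells divided by CPM in other cells, on a log scale, for the 15 highest and 10 lowest of 359 genes. Black points and bars give the section with its 95% counting interval, and orange diamonds the section without the dense patch. Ticks give the 5 pieces, also without the patch. The piece with no Ctsg count in selected cells is not drawn, and 1 piece has Ctsg above 1. Aspn stood at 21.8 with the patch and 3.43 without it, and the other high genes stayed above 7 in each piece.

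All 7 measured members of the stellate and pericyte list were at least 2-fold higher, beside 32% of all genes compared, with a median ratio of 13.7 against 1.28 over all 359 genes. The list together had 51350 CPM in selected cells and 4941 CPM in other cells, a ratio of 10.4 (10.3 to 10.5), and 10.2 without the patch. Over the pieces it ran from 7.13 to 11.5. Only 25 selected cells held no count of the list. Bgn, the proteoglycan biglycan, had a mean of 4.59 counts per selected cell and a ratio of 17.1. Igfbp3, which binds insulin-like growth factors, had 3.22 counts and a ratio of 9.23. Des, the intermediate filament desmin by which stellate cells are often stained, had 2071 CPM against 178 CPM, a ratio of 11.6. Rgs5, a pericyte gene, was rarer, at 939 against 67.3 CPM, and its ratio ran from 2.38 to 22.8 over the pieces. Higd1b missed the minimum, with 144 counts in the section.

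The list's genes differed in where they were highest. Igfbp3 had 21285 CPM in selected interior cells, 10236 on the rim and 3350 in the patch. Bgn ran the opposite way, with 15368, 22842 and 43427 CPM.

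The label was only partly borne out, because genes of other stromal cells were high as well. In the section those lists had ratios near that of the stellate and pericyte list, while in the interior that list stood at 10.6, fibroblast and matrix genes at 6.99 and smooth muscle genes at 8.38. On the rim the 3 lists stood, in that order, at 4.56, 3.64 and 3.31. In the patch, where other cells carried these genes too, they stood at 1.42, 1.33 and 1.497. Of 17 measured fibroblast and matrix genes, 12 were at least 2-fold higher, beside 32% of all genes compared, and none at least 2-fold lower, beside 13.6%. Their median ratio was 12.1 against 1.28, with a list ratio of 10.04 (9.97 to 10.1). Without the patch 11 of the 17 were at least 2-fold higher, beside 30.5%, with a median of 8.02 and a list ratio of 8.10. Col1a2 had 41099 against 2649.7 CPM, Ccdc80 5504 against 450.1 CPM and Fbln5, a fibulin of elastic fibers, 3048 against 247 CPM. With the patch, Serpinf1 (0.855), Pcolce2 (0.704), Comp (0.580), Pi16 (1.20) and Col2a1 (1.56) were the 5 that stayed within 2-fold. Of 6 smooth muscle genes, 5 were at least 2-fold higher, beside the same 32%, with a median ratio of 12.9. Without the patch 5 of them had enough counts and 4 were at least 2-fold higher, beside 30.5%, with a median of 8.01. That list's ratio was 10.9 in the section and 7.41 without the patch, and Pln alone was within 2-fold at 1.66.

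All 3 mesothelium genes were at least 2-fold higher, beside 32% of all genes compared. The list ratio was 17.2 in the section and 20.1 without the patch, but lower within each place. It was 10.1 with only transcripts over the nucleus and 69.0 against cells over 20 µm from any selected cell. In selected cells the mesothelium genes were highest on the rim, with 17375 CPM against 4573 in other rim cells, a ratio of 3.80. The interior had 1477 against 110 CPM, a ratio of 13.5. In the patch the order was turned, with 2270.1 against 5115 CPM, a ratio of 0.444. A count of any of the 3 was present in 63.2% of selected rim cells and in 20.04% of other rim cells. In the interior the shares were 6.40% and 0.979%, and in the patch 11.6% and 17.6%. Upk3b alone had 12100.3 CPM in selected rim cells and 1071 in the interior.

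Endothelial genes were higher in the section too, but by less. Of 15, 9 were at least 2-fold higher, beside 32% of all genes compared, and none at least 2-fold lower, beside 13.6%. The median ratio was 2.15 against 1.28 over all genes, and the list ratio was 2.28 (2.26 to 2.31), with 1.47 to 2.72 over the pieces. Plvap, a protein of endothelial windows, had a ratio of 5.21 and Eng, the TGF-beta coreceptor endoglin, one of 3.20. Oit3 at 1.46, Dnase1l3 at 1.59 and Lyve1 at 1.81, picked here after their values were seen, lay under 2-fold. In the interior the list stood at 45146 CPM in selected cells and 15457 in other cells, a ratio of 2.92, while on the rim it was 1.28. In the patch the order was turned, with 25356 CPM in selected and 56358 in other cells, a ratio of 0.450. Counting only transcripts over the nucleus, for selection and comparison alike, gave 2.46 for endothelium and 14.5 for the stellate and pericyte list.

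Blood and liver genes were lower. The 11 erythroid genes had a list ratio of 0.484 (0.482 to 0.486) and 9 of them were at least 2-fold lower, beside 13.6% of all genes compared. Without the patch the ratio was 0.570 and 4 were, beside 8.55%. Of 13 hepatocyte genes, 10 were at least 2-fold lower, with a list ratio of 0.413. Without the patch 7 were, with 0.490. The median ratio was 0.461 for erythroid and 0.413 for hepatocyte genes, against 1.28 over all genes. Macrophage genes were near the level of other cells, with a list ratio of 0.904 and 0.825 to 0.940 over the pieces. C1qb stood at 3717 against 3727 CPM, Marco had a ratio of 0.399, and Ms4a7 had 3.03 in the section and 1.56 without the patch. Granulocyte genes had a list ratio of 0.520 and megakaryocyte genes 0.840. Cell cycle genes had 0.884, with Ube2c lowest at 0.527. Per cell their counts were not lower, with a median of 7 in selected and 6 in other cells.

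**Figure D3:**
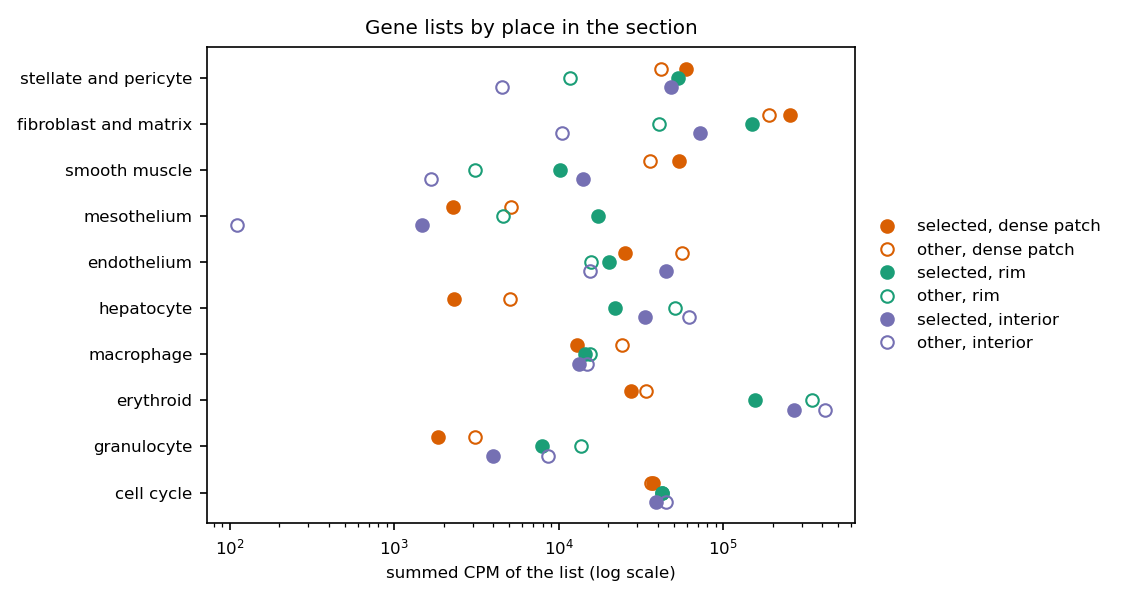
Summed CPM of 10 gene lists, on a log scale, in selected cells (filled) and other cells (open) of the dense patch, the rim and the interior. Selected cells of all 3 places had between 47962 and 59718 CPM of the stellate and pericyte list, whereas in selected cells mesothelium genes were highest on the rim and hepatocyte and erythroid genes lowest in the patch.

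Rim and interior also differed within the selected cells in genes that the rule did not use and that were picked here after their values were seen. Higher in the interior were Angpt2, an angiopoietin, with 741 CPM against 129 CPM on the rim, Mamdc2 with 1252 against 229 CPM, and Sod3, an extracellular superoxide dismutase, with 1951 against 487 CPM. Calcrl, the receptor subunit for adrenomedullin, stood at 7758 CPM in the interior and 2679.9 CPM on the rim. Higher on the rim were Krt19, a keratin of epithelia and mesothelium, with 4499.8 against 385 CPM, Cav1, the coat protein of caveolae, with 3636 against 493 CPM, and Podxl, an anti-adhesive sialomucin, with 12927 against 4378 CPM. In other interior cells Sod3 had 117 CPM, Mamdc2 79.8 CPM and Angpt2 85.4 CPM, all below the selected interior cells.

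Cells led by different selecting genes differed in these lists, outside the patch. Cells led by Lhx2 had the most mesothelium counts, 10291 CPM, and 39.9% of them lay on the rim. Cells led by Colec11 had 1138 CPM, and 247 of the 260 lay in the interior. Cells led by Pdgfrb had the most smooth muscle counts, 25846 CPM, with Myh11 at 4624 CPM against 598 in cells led by Lhx2 and 929 in those led by Lum. Endothelial genes stood at 46322 CPM in cells led by Colec11 and 43418 in those led by Pdgfrb, above the 28091 CPM of cells led by Lhx2. The stellate and pericyte list differed little, between 48677 and 53912 CPM in cells led by Colec11, Lhx2, Pdgfrb or Lum. The 8 cells led by Wnt2 are too few to describe.

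Of 27 measured signals and receptors, 17 were at least 2-fold higher in selected cells, beside 32% of all genes compared, and 2 at least 2-fold lower, beside 13.6%, and the median ratio was 3.09 against 1.28 over all genes. Besides Ptn, Pdgfra, Fzd2 and Ackr3, the highest was Sfrp1, a secreted Wnt inhibitor, with 20921 against 1239 CPM and a ratio of 16.9. Among ligands, Pdgfa had a ratio of 9.18, with 3005 CPM in selected rim cells and 666 in the interior. Its relative Pdgfb, the ligand of the selecting gene Pdgfrb, was near the level of other cells, with 289.8 and 271 CPM and a ratio of 1.07 (0.949 to 1.20). Angpt2 had a ratio of 5.71, Bmp2 3.09, the chemokines Cxcl13 8.60, Ccl2 4.57 and Cxcl16 2.28, Ccn3 9.66 and Il18 2.22. Igf1 had a ratio of 2.86 in the section and 1.35 without the patch, and it stood at 5462 CPM in selected patch cells and 587 CPM in selected interior cells.

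The binding proteins of insulin-like growth factors did not share a direction. Igfbp7 (6.65) and Igfbp6 (7.14) were high along with Igfbp3, whereas Igfbp1, a hepatocyte product, had a ratio of 0.458. Igfbp6 was a rim gene, at 886 CPM there and 69.1 in the interior. Vegfa (1.92), Vcam1 (1.90) and Itgb1 (1.98) lay just under 2-fold. Kit, the receptor of stem cell factor on blood progenitors, had 0.641, Cxcl10 0.688, Cxcl1 0.612 and Wif1 1.03.

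The rule did not use shape, though a larger cell can collect more counts. Nuclei of selected cells were more elongated, with a median ratio of long to short axis of 1.41 (quartiles 1.20 and 1.77) against 1.20 (1.11 and 1.35) in other cells. An axis ratio over 2 was found in 15.4% of selected and 2.64% of other nuclei. By place, the medians of selected and other cells were 1.54 and 1.42 in the patch, 1.47 and 1.22 on the rim, and 1.36 and 1.20 in the interior, so other cells of the patch were elongated too. Outside the patch, the selected median of each piece, 1.33 to 1.43, was above its other median, 1.19 to 1.22. The quartile ranges overlapped, so shape did not separate the cells. Nucleus area had a median of 30.4 µm² in selected and 26.4 µm² in other cells, and cell area 69.8 and 47.4 µm². Selected cells held fewer transcripts for their area, with medians of 2.86 and 3.59 per µm². This differed by place: the medians were 2.07 and 3.02 on the rim and 3.26 and 3.61 in the interior. In the patch they were nearly equal, at 2.249 and 2.255.

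The selecting transcripts lay over the nucleus more often in selected cells, at 52.8% (52.3% to 53.2%) against 44.7% (44.2% to 45.2%) in other cells. For all genes the order was reversed, at 49.5% and 57.6%, though the groups differ in which genes make up their counts. Outside the rule, Pdgfra lay over the nucleus more often in selected cells (53.2% against 44.0%), and Col1a1 differed little (44.1% against 42.9%). Slc4a1 (54.0% against 60.5%) and Upk3b (37.2% against 42.6%) went the other way. Only 1.43% of Pdgfrb and 2.31% of Lum transcripts lay outside all cells, whereas 9.88% of Col1a1 transcripts did. When only transcripts over the nucleus were counted toward the 5, 2348 cells were selected (2.00% of the section).

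Selected cells lay nearer to an edge. The median distance to the nearest 20 µm square without a cell was 72.1 µm (40 to 146 µm) against 140 µm (80 to 215 µm) in other cells. Of the selected cells, those of the patch included, 26.0% lay within 40 µm of the outer edge, against 4.65% of other cells. In the interior alone the medians were 100 and 141 µm.

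Selected cells had other selected cells beside them. Within 20 µm, center to center, 21.5% of the neighbors of a selected cell were selected, against 2.75% for other cells, a ratio of 7.80. Without the patch the values were 11.8% and 2.62%, a ratio of 4.50. In the interior they were 8.19% and 2.38%, a ratio of 3.45. The nearest other selected cell lay at a median of 12.4 µm in the interior, and 67.3% of selected interior cells had one within 20 µm. Selected cells had fewer neighbors of any kind, with 17.7 ± 6.56 (SD over 5273 cells) against 23.8 ± 5.31 (SD over 112056 cells). Within each place the means lay closer. They were 21.0 against 24.2 in the interior, 11.5 against 15.3 on the rim and 14.9 against 16.0 in the patch.

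Of the other interior cells, 37.2% had a selected cell within 20 µm. Those 39642 neighbors were compared with the 66902 other interior cells that had none. Stellate and pericyte genes had 6277 against 3446 CPM, a ratio of 1.82, and Col1a1 2346 against 721 CPM, a ratio of 3.26. The selecting genes themselves had a ratio of 2.19 in these neighbors. Counts assigned across a cell border would move with distance in the same way, and their part in these ratios was not tested.

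Over the whole section, the 5 highest genes in neighbors were Upk3b at 10.1, Upk1b at 9.68, Nnat at 6.69, Mfap4 at 6.66 and Ptn at 6.14, all of them also high in the selected cells. In the interior Upk3b was 5.43 and Nnat 4.11. The mesothelium list had 8.68 in neighbors over the section, 4.44 when cells were matched within 200 µm squares and 2.97 with a radius of 10 µm. Endothelial genes had a ratio of 1.44 in the section and 1.44 in the interior, with 1.29 to 1.46 over the pieces, but 0.991 (0.957 to 1.03) on the rim.

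The 5 lowest genes in neighbors were Fcnb (0.693), Elane (0.711), Pck1 (0.727), Ctsg (0.755) and Pglyrp1 (0.764), and 4 of them are made by developing granulocytes, while Pck1 belongs to gluconeogenesis. The granulocyte list had 6924 against 9649 CPM in the interior, a ratio of 0.718, but on the rim it was 1.49. Over the pieces the list ran from 0.699 to 0.934, and with a radius of 40 µm its ratio in the section was 1.11 instead of 0.780. Of its members, Ly6g (1.16) and Mmp9 (1.03), picked here after their values were seen, were not lower in neighbors. Erythroid genes had a ratio of 0.944 in the section, 0.964 in the interior and 0.813 on the rim. Hepatocyte genes had 0.941, 0.959 and 0.870, and 1.06 in the section with a radius of 40 µm. Macrophage genes had 0.998 in the section and 0.990 in the interior.

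With distance from a selected cell, interior cells changed in steps. Cells centered 5 to 10 µm away had 5099.8 CPM of the selecting genes, those at 10 to 15 µm 2304, those at 15 to 20 µm 1483 and those at 20 to 40 µm 1280.3. Endothelial genes had 23954, 20042, 14733 and 13281 CPM over the same steps. Hepatocyte genes had 48190.5 CPM at 5 to 10 µm, 67123 at 15 to 20 µm, 64211 at 20 to 40 µm and 58606 at 40 to 80 µm. Granulocyte genes had 5196 CPM at 5 to 10 µm, 10201 at 20 to 40 µm and 8196 at 40 to 80 µm. Macrophage genes stayed between 14233 and 15526 CPM from 5 to 80 µm.

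**Figure D4:**
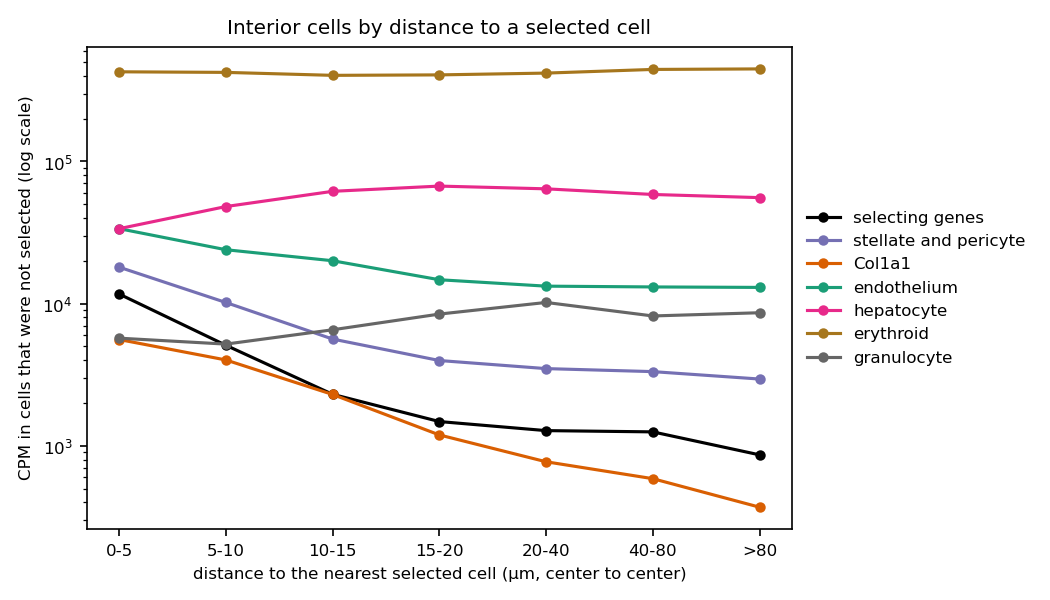
CPM on a log scale, in interior cells that were not selected, by distance in µm to the nearest selected cell. Selecting, stellate and pericyte, Col1a1 and endothelial counts were highest in the nearest cells, hepatocyte and granulocyte counts were lowest within 10 µm, and erythroid counts stayed between 403335 and 447616 CPM. The nearest bin holds 382 cells and the farthest 426.

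The same rule was applied to the other organs imaged with this panel, where the selecting genes contributed in other proportions. It selected 2119 of 52594 cells in P8 bone marrow (4.03%), 907 of 108338 in untreated spleen (0.837%) and 1513 of 94582 in PHZ spleen (1.60%). Colec11 had a mean of 1.10 counts per selected cell in fetal liver and at most 0.0419 in the other 3 sections, and Lhx2 1.44 against at most 0.0218. Marrow cells were selected on Lum (4.47) and Pdgfrb (2.91), and spleen cells on Pdgfrb (5.59 untreated and 7.13 with PHZ). Nnat stood at 12456 CPM in the selected fetal liver cells and at most 238 CPM in those of the other 3, and Upk3b at 3853 against at most 499. Des had 2071 CPM in selected cells of fetal liver and 6812, 8434 and 13465 CPM in those of marrow, untreated spleen and PHZ spleen, but its ratio over other cells of the same section was highest in fetal liver, at 11.6 against 1.84, 4.20 and 3.97. Other genes were high in all 4: Pdgfra stood at 13049, 12138, 9188 and 16198 CPM in selected cells of fetal liver, marrow, untreated spleen and PHZ spleen. The stellate and pericyte list had a ratio over other cells of the same section of 10.4, 3.27, 4.17 and 4.60. Levels in selected cells did not follow these ratios. In the same order, Bgn had 22067, 69231.5, 42187 and 43635 CPM, Rgs5 939, 4707, 1884 and 616 CPM, and Itga8 4206, 414, 6711 and 1965 CPM. These are 1 section each, and organ, age and section cannot be told apart.

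**Figure D5:**
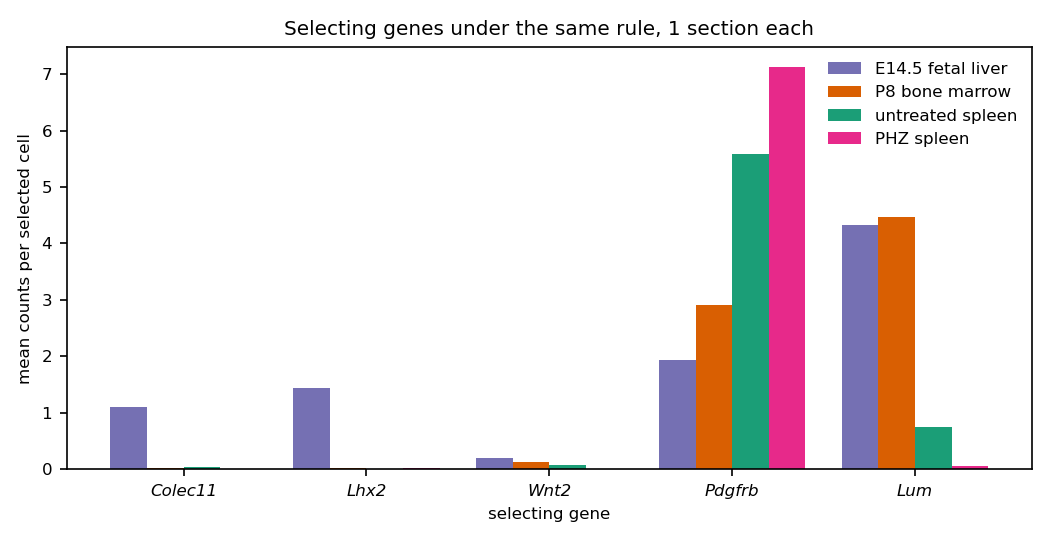
Mean raw counts per selected cell of the 5 selecting genes in the 4 sections imaged with the 477-gene panel, 1 section each. Colec11 and Lhx2 exceed 1 count per cell only at E14.5, while Pdgfrb and Lum carry the selection in bone marrow and Pdgfrb in both spleens.

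Colec11 was not on the panel of the E13.5 fetal liver and the 89-week bone marrow. With the other 4 genes, 25 of 5285 cells passed in E13.5 fetal liver (0.473%) and 7 of 143810 in 89-week marrow, beside 4471 cells (3.81%) at E14.5. Those sections used 5050 genes and another segmentation, so their shares are given side by side without a comparison.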

How the data were processed

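The deposited counts were raw whole-number transcripts per gene and cell from Xenium Onboard Analysis 1.7.1.0 on the E14.5 section. Per the file headers, the authors' transcripts carry a quality score, and those at 20 or more made up the counts. Cell positions, areas and nucleus outlines were used as deposited. The study's further software was not used here. Members, gene lists, the patch, the rim and the pieces were chosen with earlier results of these data known. Counts were summed over cells and divided by the summed gene counts (CPM, computed here). Ratios carry exact 95% conditional binomial intervals and shares exact binomial intervals. Both cover counting error only, and cells are not replicates. Genes needed 500 counts. Named genes were the selecting genes, the 15 highest and 10 lowest ratios, list examples, measured signals and receptors, and the 5 highest and 5 lowest ratios in neighbors. The patch is the largest group of cells, linked at 30 µm, with at least 40% selected cells among at least 10 neighbors within 50 µm. Pieces were linked at 40 µm. Neighbors of selected cells were left out of the cells they were compared with. Functions were tested on simulated data. Python 3.11.15, SciPy 1.17.1 and NumPy 2.4.6 were used. Alternatives are in the closing section. No doublets were removed, and 14 cell names also occurred in the other 5 sections, whose cells were imaged separately. The values of 1 list member, and of a short list that rests on it, are not reported here.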

Additional observations from a re-analysis of the deposited data

How the results depend on the processing

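No paired analysis was possible because each condition has 1 section. Taking out the dense patch was chosen after seeing the data. The share of selected cells (4.49%) was 8.25% at 3 or more counts, 1.47% at 10 or more, 2.00% with transcripts over the nucleus only, and 1.97%, 3.38%, 3.58%, 3.81% and 4.35% without Lum, Pdgfrb, Lhx2, Colec11 or Wnt2 in the sum. It was 3.70% without the patch, and 2.29% after thinning to 100 transcripts, against 4.92% unthinned in the same cells; 394 selected and 17843 other cells were too shallow for this. The number of genes at least 2-fold lower moved from 49 to 30 without the patch, and was 47 to 67 otherwise. The number at least 2-fold higher stayed between 99 and 158. The stellate and pericyte ratio (10.4) was 17.7 against cells with none of the 5 genes, 14.6 against cells over 20 µm away, 14.5 over the nucleus, 10.9 against cells of like total, 10.2 without the patch and 10.1 with CPM taken without Hbb-bt. The endothelium ratio (2.28) was, in that order, 2.85, 2.67, 2.46, 2.39, 2.44 and 2.23, and 2.09 at 10 or more counts and 2.24 without Wnt2. The ratio of neighbor shares (7.80) was 14.5 at 10 or more counts, 7.09 over the nucleus, 9.67 at 10 µm, 6.19 at 40 µm and 4.50 without the patch. In neighbors, lists at 10 µm, at 40 µm, at 10 or more counts, over the nucleus, matched within 200 µm squares and without the patch had ratios as follows. Endothelium (1.44) had 1.66, 1.22, 1.46, 1.43, 1.37 and 1.42. Erythroid (0.944) had 0.981, 0.921, 0.871, 0.930, 0.983 and 0.949. Hepatocyte (0.941) had 0.741, 1.06, 0.891, 0.927, 0.908 and 0.947, so it turned at 40 µm. Macrophage (0.998) had 1.03, 0.961, 1.03, 1.04, 1.01 and 0.993. Granulocyte (0.780) turned to 1.11 and cell cycle (0.996) to 1.02 at 40 µm. Mesothelium (8.68) had 2.97 to 6.89 under the first 5 of these. The cause of these turns was not tested. The nuclear share (52.8%) was 55.7% at 10 or more counts and 54.3% without the patch. The axis ratio (1.41) was 1.55 at 10 or more counts, 1.52 over the nucleus and 1.39 without the patch, and nucleus area (30.4 µm²) was 35.9 and 34.5 µm² under the former pair. Edge distance (72.1 µm) was 80 µm over the nucleus and 112 µm with 50 µm squares. No ratio of the 25 named genes in the selected cells crossed 1 under any of 8 alternatives. This says little, because the genes were picked for the highest and lowest ratios in the same cells. Of their 200 values under these, 39 moved by over 1.5-fold. Against cells over 20 µm away, Mfap4 (39.9) had 129, Nnat (26.7) 86.6 and Upk3b (19.1) 87.5, and over the nucleus Ctsg (0.333) had 0.0984.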
